A study of Oryctolagus cuniculus with 3 samples.

Results

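The long non-coding loci of rabbit cumulus-oocyte complexes were compared between a library from the highest ammonia exposure and a control library. A locus is a place on the genome from which 1 or more long non-coding transcripts were assembled, and its level is the sum of their FPKM (fragments scaled by transcript length and by library size). The deposited tables hold 15335 long non-coding transcripts at 13113 loci. A locus entered the comparison when it reached at least 1 FPKM in the higher of the 2 libraries, which left 8647 of the 13113 loci. Its difference is that of log2(FPKM + 1), HAC minus CG, a scale that understates the change of low loci. It was called higher or lower in HAC when that difference was at least 1 in size.

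Cumulus-oocyte complexes, the egg cell with the ovarian somatic cells around it, came from female IRA rabbits that were 35 days old when a 4 week stay in rooms of controlled ammonia (NH3) began. The labels count 150 animals in the study. The control group (CG) was held under 3 ppm NH3, the low ammonia group (LAC) at 10 ppm and the high ammonia group (HAC) at 30 ppm. Each group is represented by 1 library, and the number of animals pooled in it is not given in the sources used. No transgene or injected agent is named for any group. None of the differences below therefore has a replicate check, and no p-value, standard error or standard deviation is given.

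Long non-coding RNAs are transcripts without a recognised protein product. Some act on the gene beside or opposite which they are made, others act away from their site as scaffolds or decoys, and many assembled ones have no known role. Growing oocytes store large amounts of RNA, and cumulus cells pass metabolites to the oocyte through gap junctions, so RNA of both cell types is present in a complex. The authors gave each transcript a class by its place. Intergenic transcripts lie outside annotated genes and intronic ones within an intron. Antisense transcripts lie over exons of a gene on the other strand. Junction-sharing transcripts use a splice junction of an annotated gene and are thus alternative forms of it, and exon-overlapping ones cover an exon without sharing a junction. Known transcripts are annotated as they stand, and a locus with transcripts of several classes is called mixed here.

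The library facts that touch these loci are few. The mapping statistics list 70891162 valid reads for CG, 72520954 for LAC and 72141648 for HAC, of which 92.70%, 93.21% and 90.25% mapped and 22.01%, 16.23% and 19.89% were spliced. Another block of statistics lists the totals of LAC and HAC exchanged, so the identity of the library labelled HAC rests on the headers of its columns, and every direction below assumes that label. In the gene table of CG, all 29 oocyte markers found there (with BMP15 at 1.79e+03 CPM, counts scaled to the library's total) and all 14 granulosa and cumulus markers found there (with GJA1 at 4.98e+03 CPM) had at least 1 CPM. Of the markers of other cells, 3 of 10 for macrophages, 1 of 7 for lymphocytes, 2 of 9 for endothelium, 7 of 11 for stroma and theca, 1 of 3 for red blood cells and 2 of 8 for surface and oviduct epithelium had at least 1 CPM in CG. The gene table in the file of HAC is the one in the file of LAC, so no gene level of HAC was used and these cell types could not be compared between CG and HAC. In bulk RNA, fewer cells of a type and less RNA per cell cannot be told apart.

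On the scale used, most loci had similar levels in both libraries. That rests in part on the pseudocount of 1 FPKM, since 4817 of the loci had 1 to 2 FPKM in the higher library. With a pseudocount of 0.1, 1560 loci were called higher and 1123 lower. The median difference over the 8647 loci was 0.09 (quartiles -0.30 and 0.47), and 5143 loci (59.5%) differed by less than 0.5. A total of 713 loci (8.25% of those tested) were called higher in HAC and 489 (5.66%) lower. With median-of-ratios factors (0.961 for CG and 1.04 for HAC), which shift the differences by -0.11, 608 of 8607 loci (7.06%) were higher and 553 (6.43%) lower. Scaling both libraries to the same summed FPKM gave 516 higher and 688 lower. The share of the calls that were higher was thus 59.3% as deposited, 52.4% with median-of-ratios factors and 42.9% with equal totals, so the balance of directions depends on the scaling. At a size of 2 or more, 79 loci were higher and 66 lower as deposited. Across loci, the log2 levels of CG and HAC had a Pearson r of 0.78 and the levels a Spearman rho of 0.43 (n = 8647), a description of 2 libraries that share one transcript assembly.

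**Figure D1:**
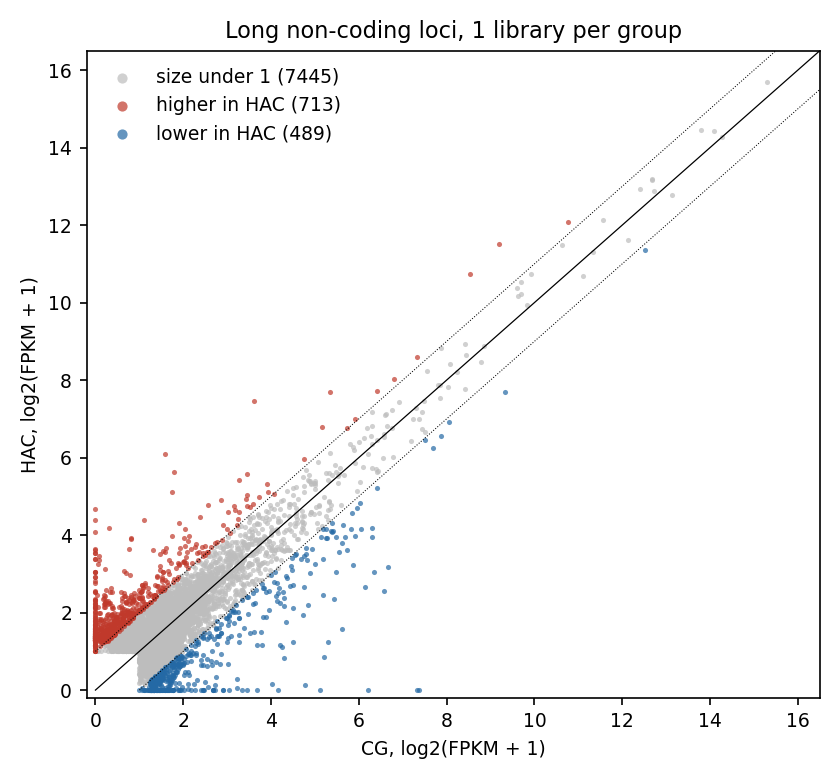
Level of each of the 8647 long non-coding loci in CG (horizontal axis) and HAC (vertical axis), both as log2(FPKM + 1), with 1 point per locus and 1 library per group. The solid line marks equal levels and the dotted lines a difference of 1; 713 loci lie above the upper dotted line (red) and 489 below the lower one (blue), most of them at low levels.

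The loci called were mostly short and weakly sequenced. The median length of the longest transcript was 400 bases at loci called higher and 393 bases at loci called lower, against 857 bases over all loci. By length, 24.5% of 2969 loci under 500 bases were called, 13.2% of those from 500 to 1000 bases, 7.5% of those from 1000 to 3000 bases and 4.45% of 1550 loci of 3000 bases or more. Coverage times length divided by the read length of 150 bases gives the number of reads a level stands for, called read equivalents here. Its median in the higher library was 81 over all loci and 46 over the called ones. Of 2074 loci with under 30 read equivalents 21.5% were called, and of 3255 loci with 100 to 1000 9.71%. Short, thinly covered loci carry the largest counting error, and their part in the counts of calls was not tested.

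The direction of the calls changed with the level. Among 4817 loci whose higher library had 1 to 2 FPKM, 292 were higher and 182 lower in HAC. Among 2701 loci at 2 to 5 FPKM, 274 were higher and 142 lower. At 5 to 10 FPKM 66 were higher and 58 lower of 570, while median-of-ratios factors gave 56 and 70. From 10 to 50 FPKM lower calls were the more numerous, with 68 higher and 82 lower of 446 loci, and at 50 FPKM or more 13 were higher and 25 lower of 113. Both scalings had more lower than higher calls in these last bins, with 57 and 89, and 11 and 25, after median-of-ratios factors. Above 10 FPKM 33.6% of loci were past the size rule in both bins, against 9.84% at 1 to 2 FPKM, where the pseudocount holds differences down. Among 610 loci with at least 1000 read equivalents, 35 were higher and 65 lower.

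**Figure D2:**
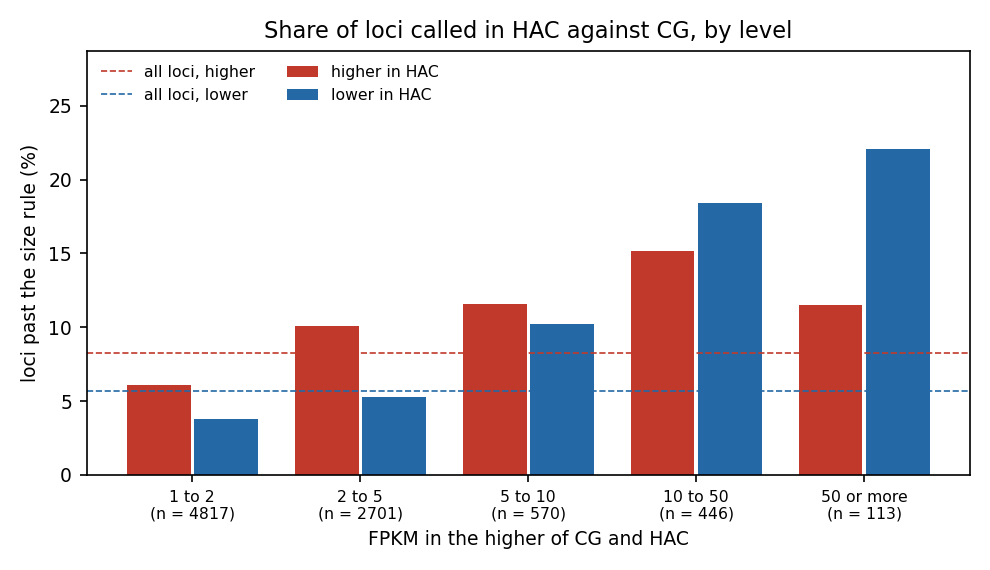
Share of loci (%) called higher (red bars) or lower (blue bars) in HAC against CG, by the FPKM of the higher library, with the number of loci under each bin and dashed lines for the shares over all 8647 loci. As deposited, higher calls outnumber lower ones below 10 FPKM, and lower calls outnumber higher ones above it (18.4% against 15.2%, and 22.1% against 11.5%), while with median-of-ratios factors the bin of 5 to 10 FPKM has more lower calls (70 against 56).

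Some calls were of loci listed at 0 in one library. Of the 713 loci called higher, 167 were listed at 0 in CG, with a median of 1.69 FPKM in HAC and 16 of them at 5 FPKM or more. Of the 489 called lower, 100 were listed at 0 in HAC, with a median of 1.77 FPKM in CG and 15 at 5 FPKM or more. LAC was also at 0 at 72 of the 167 and at 48 of the 100. An exact 0 in an abundance estimate can be a failed estimate, so no fold is given against such a 0. The library at 10 ppm lay between CG and HAC at 413 of the 713 higher loci and at 314 of the 489 lower loci. It was below both at 233 and 119 of them, and above both at 67 and 56. The values of LAC stand beside the others only as a further level, since both ammonia libraries are set against the one CG library.

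By class, intergenic loci were the most numerous, with 395 higher and 266 lower of 4290 (15.4% called). Intronic loci had 183 higher and 131 lower of 2988 (10.5%). Junction-sharing loci, the alternative forms of annotated genes, had 51 higher and 36 lower of 376 (23.1%), and antisense loci 30 higher and 23 lower of 262 (20.2%). Exon-overlapping loci had 21 and 15 of 234 (15.4%) and mixed loci 12 and 13 of 199 (12.6%). Loci of known transcripts had 21 higher and 5 lower of 298 (8.72%), with 14 higher and 5 lower after median-of-ratios factors. All 7 classes had a median difference between 0.08 and 0.18. Classes differ in length and depth: the median length was 688 bases in intergenic, 1037 in intronic and 1381 in junction-sharing loci, with 62, 87 and 238 read equivalents in the higher library. Whether class itself goes with the share of calls beyond length and depth was not tested.

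Strand divided the intronic loci. A strand was given for 1277 of them, of which 5.17% were called (35 higher, 31 lower), and none for 1711, of which 14.5% were called (148 higher, 100 lower). Those without a strand all had 1 exon and a median length of 505 bases, against 2455 bases with a strand. Intergenic loci went the other way, with 18.7% of 1174 loci with a strand called (146 higher, 73 lower) and 14.2% of 3116 without. In all, 4827 of the 8647 loci had no strand although the library protocol marks it, so reads of both strands cannot be told apart at such a locus.

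**Figure D3:**
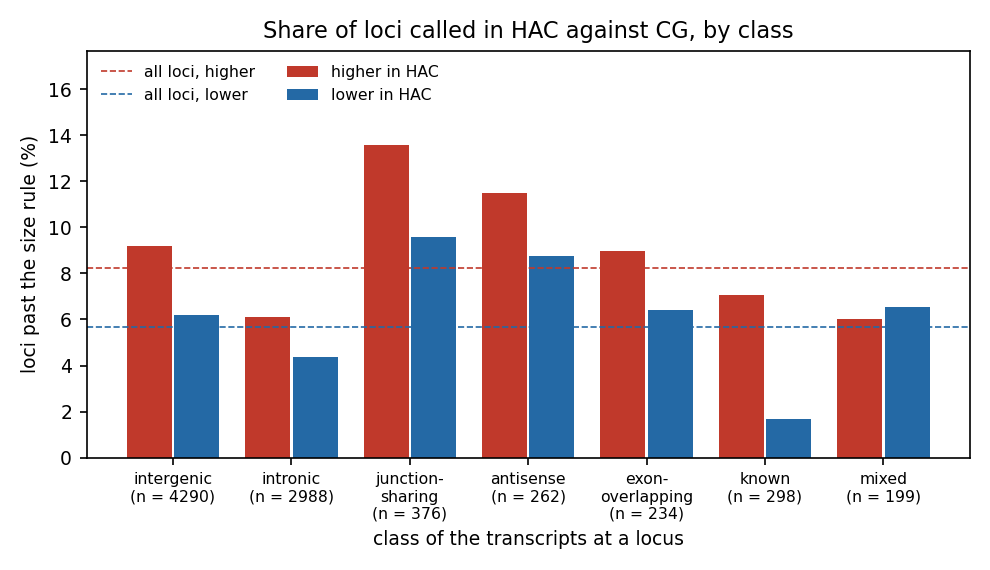
Share of loci (%) called higher (red bars) or lower (blue bars) in HAC against CG in each class of transcripts, with the number of loci under each class and dashed lines for the shares over all 8647 loci. Junction-sharing loci had 13.6% higher and 9.57% lower, and known loci 7.05% higher and 1.68% lower.

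The loci lower in HAC with the largest differences included 5 that were listed at 0 there, 1 of them described with its opposite-strand partner further on. MSTRG.18562, an intergenic 2-exon transcript of 373 bases at NC_013687.1:43837723-43863619 (OryCun2.0), 2052 bases from CCDC200, stood at 165 FPKM in CG against 849 in LAC and 0 in HAC. Its highest level was thus in the 10 ppm library and its order did not follow the NH3 concentration. Its span overlaps that of the far more abundant MSTRG.18561 on the opposite strand, with 2581 FPKM in CG and 2511 in HAC. The sum of both differed by -0.13 and was not called. MSTRG.18561 alone keeps that sum within the size rule, so the sum cannot show whether MSTRG.18562 changed. MSTRG.11177, of 219 bases and antisense to LOC108177453 at NC_013680.1:92041730-92041982, had 160 FPKM in CG and was at 0 in both ammonia libraries. MSTRG.10517, at NC_013680.1:10879767-10891042 in the span of an assembled gene row that joins HFE, a regulator of iron uptake, to 5 LOC genes, had 72.9, 1.88 and 0 FPKM in CG, LAC and HAC. It is 4385 bases long and stood for 13658 read equivalents in CG. Its span lies within that of MSTRG.10505 on the opposite strand, which had 76.3, 76.1 and 92.9 FPKM. The sum of both differed by -0.68 and was not called. MSTRG.10505 alone keeps this sum within the size rule too, so its lack of a call says nothing about MSTRG.10517. MSTRG.9381, an unstranded 251-base transcript in an intron of TSHZ1, a zinc finger transcription factor, had 16.7 FPKM in CG and 0 in LAC and HAC.

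The other loci with the largest lower differences kept some signal in HAC. For those with 1 transcript and at least 10 read equivalents in each library, the ratio of CG to HAC is given with an exact binomial 95% interval on read equivalents, which covers counting error only. MSTRG.4781, overlapping an exon of LOC100357307 at NC_013672.1:33425106-33456736, had 35.8, 0.91 and 0.82 FPKM in CG, LAC and HAC, a level 43.1-fold lower in HAC (24.5 to 83.9). Both ammonia libraries were low at this locus. MSTRG.15778, 11113 bases from the axonemal dynein gene DNAH14, had 47.9, 18.7 and 1.98 FPKM and was 24.2-fold lower in HAC (19.7 to 30.1), with LAC between. MSTRG.21826, 4531 bases from LOC100358735, had 94.0, 87.6 and 4.92 FPKM and was 19.1-fold lower in HAC (17.5 to 20.9), with LAC close to CG. MSTRG.13629, a mixed locus at LOC103350441, had 26.2, 7.11 and 0.10 FPKM.

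Among the loci with the largest higher differences, 6 were at 0 in CG. MSTRG.4371, a 307-base transcript over an exon of LOC100358078 at NC_013671.1:143914316-143914741, had 16.0 FPKM in HAC and was at 0 in CG and LAC. MSTRG.10781 and MSTRG.10780 are neighbouring intergenic transcripts of NC_013680.1, 89448 and 85400 bases from LRFN2, a synaptic adhesion gene that had 0.331 CPM in CG. MSTRG.10781 had 0, 1.73 and 11.2 FPKM in CG, LAC and HAC, and MSTRG.10780 had 0, 2.1 and 10.7 FPKM. Both had their lowest level in CG and their highest in HAC. MSTRG.25695, antisense to LOC108176166 at NW_003159949.1:60211-61502, was the most abundant locus of this set, at 11.2 FPKM in CG, at 0 in LAC and at 176 in HAC. MSTRG.12150 overlaps the gene of histone H4 named LOC100354956 in the files and H4C14 in RefSeq. It had 2.47, 0.03 and 48.4 FPKM in CG, LAC and HAC and was 19.8-fold higher in HAC than in CG (13.6 to 29.8). Both of these loci were lowest in LAC.

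**Figure D4:**
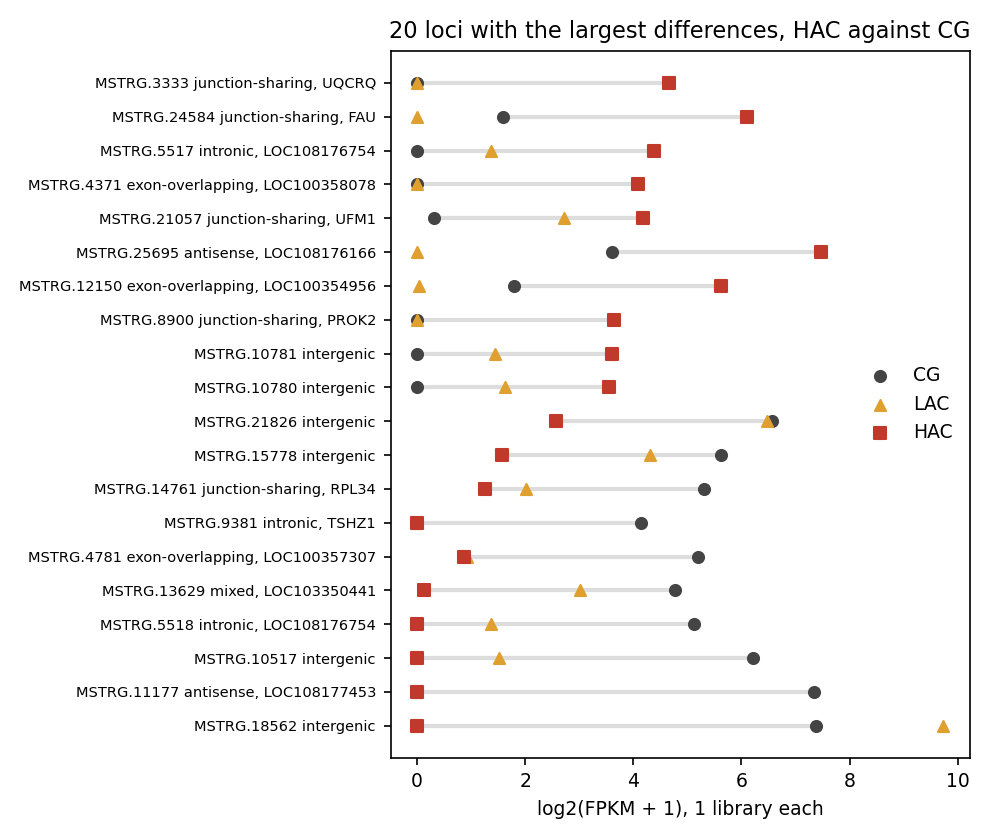
Levels as log2(FPKM + 1) of the 10 loci farthest from equal levels in each direction, among those with at least 5 FPKM in the higher of CG and HAC. Each row is a locus with its class and host gene, with 1 library each for CG (circle), LAC (triangle) and HAC (square) and a grey line from CG to HAC. LAC lies near HAC at some loci, such as MSTRG.4781, near CG at others, such as MSTRG.21826, and beyond both at MSTRG.18562.

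Junction-sharing loci show the alternative forms of genes with well-known products. MSTRG.3333, a 625-base 3-exon form of UQCRQ, a subunit of respiratory complex III, at NC_013671.1:15890388-15891568, had 24.3 FPKM in HAC and 0 in CG and LAC. The assembled gene as a whole had 24.8 CPM in CG, so the gene was expressed there while this form was listed at 0. MSTRG.24584, a form of FAU, which encodes ribosomal protein S30 fused to a ubiquitin-like protein, had 2.00, 0 and 67.4 FPKM in CG, LAC and HAC. That level was 33.6-fold higher in HAC than in CG (24.7 to 47.1), and in CG the form held 1.68% of the gene's deposited count. MSTRG.21057, a form of UFM1, a ubiquitin-like modifier, had 0.24, 5.59 and 17.1 FPKM and was 72.3-fold higher in HAC (48.0 to 114), with 0.967% of the gene's count in CG. MSTRG.8900, a form of the secreted peptide gene PROK2, had 11.5 FPKM in HAC and 0 in CG and LAC, while the gene had 11.9 CPM in CG.

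Forms of other genes were lower in HAC. MSTRG.14761, a 5-exon form of RPL34, a protein of the large ribosomal subunit, had 38.4, 3.04 and 1.38 FPKM in CG, LAC and HAC. The level was 27.6-fold lower in HAC (21.6 to 35.8), and in CG this form held 77.5% of the gene's count. MSTRG.822, a form of SDHD, the membrane anchor of succinate dehydrogenase, had 15.4, 0.08 and 0.11 FPKM and held 36.9% of the gene's count in CG. MSTRG.12113, a mixed locus at CDC42SE1, a small effector of CDC42, had 35.2, 3.82 and 4.52 FPKM and held 60.6% of the gene's count in CG. At these 3 loci LAC was as low as HAC or nearly so. The split of reads between forms of one gene is an estimate, and the gene totals of HAC were not used here, so a change of form and a change of the whole gene cannot be told apart.

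Antisense loci with the next largest differences lay over genes of several kinds. MSTRG.6292, antisense to CALU, a calcium-binding protein of the secretory pathway that had 950 CPM in CG, had 7.19 FPKM in CG and 0 in LAC and HAC. MSTRG.23825, antisense to MIF4GD, a translation regulator, had 0.04, 0 and 8.47 FPKM in CG, LAC and HAC. In the mixed class, MSTRG.21030 at the receptor phosphatase gene PTPRT had 10.0, 5.86 and 47.0 FPKM, higher in HAC than in the other libraries. In the exon-overlapping class, MSTRG.2192 at LOC100339454 had 9.92 FPKM in CG and was at 0 in LAC and HAC.

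Known transcripts were mostly weak or absent. Of 2869 known loci 298 (10.4%) reached 1 FPKM in CG or HAC, and 1214 were at 0 in all 3 libraries. In the other classes between 80.1% and 98% of the loci were tested. These shares cannot be compared, since known loci are listed from the annotation and the others only where transcripts were assembled. MSTRG.26407 (LOC108176307) had 16.6, 5.77 and 3.91 FPKM in CG, LAC and HAC and was 4.23-fold lower in HAC (2.94 to 6.22). MSTRG.21901 (LOC108175509) had 7.55, 0.97 and 3.14 FPKM, a ratio of 2.41 (1.95 to 3.00), with LAC below HAC. On the higher side, MSTRG.23468 (LOC108175843) had 2.13, 0.75 and 7.38 FPKM, 3.44-fold higher in HAC (2.54 to 4.75), and MSTRG.6781 (LOC108176845, in the span of MBD5) had 2.55, 4.64 and 7.81 FPKM. No tested locus bore a name from the list of 23 well-studied long non-coding RNAs. Of the 124 tested known loci found by number in the RefSeq table of a later assembly, 103 are long non-coding there and 19 protein-coding. Known loci named by a gene symbol were not looked up, so 19 may be too low. Among them are GNG5, USMG5 and RPS28, with 173, 166 and 95.3 FPKM in CG.

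The most abundant loci were not called. The 5 highest loci of each library held 53.5%, 57.1% and 55.8% of the summed long non-coding FPKM of CG, LAC and HAC. MSTRG.16949 and MSTRG.16948, which cover the same stretch of NC_013685.1 on opposite strands 546 bases from NEMF, had 40127 and 19753 FPKM in CG, with 11872 and 51477 in LAC and 53003 and 19865 in HAC. The plus-strand locus was the higher of the pair in CG and HAC and the lower in LAC. MSTRG.16638, 155 bases from PARP2, had 17404, 32547 and 21898 FPKM, and MSTRG.18322, 7179 bases from RAD51C, had 14206, 21602 and 22333. MSTRG.20958, antisense to WDR74, had 8997, 34109 and 7004 FPKM, highest in LAC. The differences of these loci between HAC and CG ran from -0.36 to 0.65. MSTRG.1, on the mitochondrial sequence, had 832, 658 and 1468 FPKM, a difference of 0.82 that did not reach the size rule. The mitochondrial sequence held 7.42% of the long non-coding read equivalents in CG, 4.18% in LAC and 11.1% in HAC.

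Loci at genes of the follicle were few and mostly alike in CG and HAC. Each locus was tied to the gene it lies in or, outside genes, to the nearest gene within 100 kb, and the genes were grouped in fixed lists. Of 23 loci at granulosa and cumulus genes 1 was higher and 1 lower (4.35% each, against 8.25% and 5.66% over all loci). Their median difference was 0.04 against 0.09 over all loci. Both called loci lie at INHBB, the beta B subunit of inhibin and activin. MSTRG.6678, antisense to INHBB, had 3.43 FPKM in HAC and 0 in CG and LAC, and MSTRG.6670, 42314 bases from it, had 1.44, 0.26 and 0.11 FPKM. MSTRG.9583, antisense to INHBA, the beta A subunit, was far more abundant, with 441, 49.6 and 355 FPKM, a difference of -0.31 that was not called. LAC stood lowest there. Of 2 loci at oocyte genes, MSTRG.15545, in the span of ZP4, a protein of the egg coat, was higher, with 0.3, 0 and 3.48 FPKM. A list of 2 loci is too small to set against the shares over all loci.

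Among the steroid and gonadotropin genes, 1 of 11 loci was higher and 1 lower, with a median of -0.09. These shares are 9.09% each, against 8.25% and 5.66% over all loci. MSTRG.10133, 16382 bases from PRLR, the prolactin receptor, had 7.09, 0.48 and 0.6 FPKM in CG, LAC and HAC. A more abundant locus nearer to that gene, MSTRG.10134, had 64.5, 94.0 and 40.2 FPKM and was not called. Of 42 loci at TGF-beta and Wnt genes 3 were higher and none lower (median 0.14), and 2 were higher after median-of-ratios factors. The 3 are 7.14% of these loci, near the 8.25% higher over all loci, where 5.66% were lower. One was MSTRG.16165 in an intron of SMAD3, a transducer of TGF-beta signals (0.17, 3.46 and 3.75 FPKM). The others were MSTRG.21239 in an intron of ZNRF3, an inhibitor of Wnt signalling (0.16, 1.15 and 1.49 FPKM), and MSTRG.3375 near SMAD5, a transducer of BMP signals (0.18, 0 and 1.42 FPKM). The locus with the highest mean of this list, MSTRG.7287 in an intron of BMPR2, had 5.93, 5.96 and 5.51 FPKM, level across the libraries.

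Loci at genes of ammonia, glutamine and urea handling numbered 4, of which 1 was lower and none higher. Over all loci 5.66% were lower and 8.25% higher, and 4 loci are too few to set against these shares. MSTRG.240, an unstranded transcript of 2055 bases at NC_013669.1:20045829-20047883, lies 16620 bases from AQP3, a channel for water and glycerol, and had 78.2, 42.1 and 17.2 FPKM in CG, LAC and HAC. It was 4.54-fold lower in HAC than in CG (4.29 to 4.80), with LAC between, and AQP3 itself had 0.484 CPM in CG. Loci at genes of mitochondria and energy numbered 7, of which 4 were higher and none lower (median 1.02), with 3 higher after median-of-ratios factors. The shares over all loci were 8.25% and 5.66% (median 0.09), and 2 of the 4 loci neighbour each other at 1 gene. A list of 7 loci is too small to set against these shares. The called loci were MSTRG.19302 near PDHA1, a subunit of pyruvate dehydrogenase, with 0, 4.97 and 3.71 FPKM, and MSTRG.17390 near TFAM, the mitochondrial transcription factor, with 1.66, 0.27 and 5.47 FPKM. The others were 2 neighbouring loci at PFKP, a phosphofructokinase, MSTRG.20659 (0, 0 and 2.46 FPKM) and MSTRG.20660 (0.33, 0 and 1.69 FPKM). All 4 lie outside these genes, from 13476 to 51483 bases away, and LAC was low at 3 of them.

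Of 12 loci at extracellular matrix genes 1 was higher and 2 were lower (8.33% and 16.7%, against 8.25% and 5.66% over all loci). MSTRG.13207 in an intron of COL6A6, a chain of collagen VI, had 0.06, 15.3 and 10.0 FPKM in CG, LAC and HAC, low only in CG. The lower loci, MSTRG.11006 and MSTRG.11008, lie near COL12A1, a fibril-associated collagen, and had 7.12, 5.88 and 1.54 FPKM and 1.59, 0.27 and 0.2 FPKM. MSTRG.11007 between them had 14.3, 16.4 and 6.8 FPKM, a difference of -0.97 that was just short of the size rule and passed it after median-of-ratios factors (-1.08). Of 5 loci at ribosomal protein genes, the FAU form above was higher, and MSTRG.18447 near RPL23 (2.13, 0.62 and 0.07 FPKM) and MSTRG.24652 near RPL8 (1.44, 0.11 and 0.18 FPKM) were lower. With 8.25% higher and 5.66% lower over all loci, 5 loci are too few to set against these shares. No locus was called at genes of the cell cycle (3 loci), antioxidant defence (2), apoptosis and cell stress (5) or interferon and inflammation (7), nor at markers of macrophages (6) or stroma (2). As 13.9% of all loci were called, lists of 2 to 7 loci with no call say little about these genes. No tested locus was tied to a gene of cumulus expansion or to a marker of lymphocytes, endothelium, red blood cells or epithelium.

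Within some host genes the intronic loci lay to one side. Tested intronic loci lay in 1405 host genes, of which 469 held 2 or more, and 33 held 2 or more called loci: 9 with higher calls alone, 4 with lower calls alone and 20 with both. Over intronic loci 6.12% were called higher and 4.38% lower, against 8.25% and 5.66% over all loci. The hosts named here were chosen after their values were seen. In LRRC4C, a synaptic adhesion gene, 13 of 14 loci were above 0 in difference and 5 were called higher, with a median of 0.88, and their summed FPKM was 6.19, 20.03 and 20.59 in CG, LAC and HAC. In RNLS, which encodes the flavoenzyme renalase, 9 of 10 loci were below 0, with 3 lower, 1 higher and a median of -0.80, and the sums were 13.8, 13.6 and 5.16 FPKM. LAC was level with HAC in LRRC4C and with CG in RNLS. In MACROD2, an ADP-ribose hydrolase gene, 4 of 25 loci were higher and 1 lower around a median of -0.19, and in ZBTB20, a transcriptional repressor, 1 of 25 was higher and 1 lower around a median near 0. Loci of one intron can be pieces of one precursor RNA and are not independent of each other.

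Called loci that neighbour each other mostly had the same direction. Of 71 pairs of adjacent called loci within 10 kb, 54 (76.1%) had the same direction, and of 122 within 50 kb, 86 (70.5%). The share among called loci paired at random was not computed, so these shares have no reference. The 59.3% of all calls that were higher is a different quantity. Nearby loci can also overlap, as MSTRG.21826 and MSTRG.21827 do, so they are not independent of each other. At NW_003159376.1:859399-972317, around the gene the files name PGER2, all 5 tested loci were lower, and their summed FPKM was 95.7, 77.4 and 23.4 in CG, LAC and HAC. At NW_003159366.1:1757054-1760808, which holds MSTRG.21826, 3 of 4 loci were lower and the sums were 233, 137 and 20.7 FPKM. At NC_013683.1:6213431-6218101 all 3 loci were lower (71.6, 14.6 and 15.4 FPKM), and at NC_013682.1:73604890-73611960 all 3 likewise (47.2, 20.5 and 10.5 FPKM). LAC was close to CG in the run around PGER2 and close to HAC in that on NC_013683.1. The runs above were all lower, but others were higher or mixed. The run with the most calls, at NC_013669.1:179637937-179749854, had 5 higher and 1 lower of 14 loci (10.7, 19.2 and 18.9 FPKM). At NW_003159621.1:41692-48645 all 3 loci were higher (2.25, 5.22 and 9.33 FPKM). Over the 18 sequences with at least 100 tested loci, the share called ran from 8.59% on NC_013679.1 to 18.5% on NC_013690.1.

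Some loci overlap another on the opposite strand. Whether their calls depend on how reads were divided between strands was not tested. Overlap was taken between spans from start to end, introns included, so members of a pair need not share a transcribed base. There were 317 such pairs, overlapping by at least 50% of the shorter locus, made of 499 loci, of which 14.8% were called, near the 13.9% over all loci. At least 1 member was called in 71 pairs, and the sum of the pair was called in 29 of these. Both members were called in 24 pairs, in 15 with the same direction (7 higher, 8 lower) and in 9 with opposite directions. In these 9 the summed level of the pair differed by -0.73 to 0.83, and none of the sums was called. The largest such case was MSTRG.5518 and MSTRG.5517 in an intron of LOC108176754, at NC_013673.1:9552831-9554043. MSTRG.5518, on the plus strand, had 33.7, 1.57 and 0 FPKM in CG, LAC and HAC, and MSTRG.5517, on the minus strand, had 0, 1.58 and 19.97, so that the signal stood on one strand in CG and on the other in HAC.

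Other pairs of opposite direction lie in or near genes known from other contexts. Near HIF1A, the oxygen-sensing transcription factor, the intergenic MSTRG.18811 had 2.19, 4.21 and 9.2 FPKM and the intergenic MSTRG.18815 had 7.56, 9.78 and 1.64, while their sum was 9.75 in CG and 10.8 in HAC. In introns of ERBB4, a receptor for neuregulins, MSTRG.7413 had 9.06, 0 and 0 FPKM and MSTRG.7412 had 5.22, 22.2 and 12.0, with sums of 14.3 in CG and 12.0 in HAC. At SKA2, a component of the kinetochore, the intronic MSTRG.18312 had 5.45, 5.93 and 0 FPKM and the junction-sharing MSTRG.18311 had 0.58, 0.5 and 4.4. In such pairs the share of the level on each strand differed between the libraries while the summed level was not past the size rule. Where both members are called in the same direction, the sum is called that way by construction. MSTRG.21826 and MSTRG.21827 summed to 175, 87.6 and 12.2 FPKM in CG, LAC and HAC, and MSTRG.24023 and MSTRG.24024 at LOC100342501 to 48.5, 88.9 and 250.

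The size rule has no gap around it. The loci just inside were MSTRG.2233 (0.68 FPKM in CG and 2.36 in HAC) and, on the lower side, MSTRG.20353 (2.6 and 0.8 FPKM). The loci just outside were MSTRG.5926 (2.86 and 6.71 FPKM, a difference of 0.998) and MSTRG.17472 (2.01 and 0.51 FPKM, -0.995).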

How the data were processed

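RNA depleted of ribosomal RNA was sequenced in 1 library per group. Reads were processed with fastp and HISAT2 on OryCun2.0, per the submitters' processing notes. The assembly and abundance steps are not given in the sources used here. The deposited tables give, per the file headers, FPKM and coverage (a signal of mean read depth) for each long non-coding transcript, and an estimated count and FPKM for each gene. Gene counts of CG were used only for levels in CPM. In CG, 92.8% of 9030 loci with 1 transcript and a coverage above 2 had a deposited count within 5% of 2 times their read equivalents. The gene table in the HAC file repeats that of LAC, and 5 of 12 columns of values were left unused.

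The deposited FPKM values of a locus were added up without rescaling, with a pseudocount of 1 FPKM, at least 1 FPKM in the higher library and a size rule of 1. Median-of-ratios factors stand beside it. The code that makes the calls was run on simulated counts with counting error alone. Large changes were planted there at loci with a mean of at least 5 FPKM. That run checks the code and cannot say which calls would recur in a further library. Named loci are, among the 1129 with at least 5 FPKM, the 10 most different ones in each direction, the 2 most different per class and direction, the 5 with the highest mean and, per gene list, up to 2 called loci and 1 with the highest mean. Other loci named at lists, host genes, runs and strand pairs, and the mitochondrial locus, were chosen after their values were seen. The values of 1 called locus at a listed gene are not reported here. The loci and the lists were chosen with earlier results of these data known. Of 3820 LOC numbers, 1852 were found in a RefSeq table (assembly mOryCun1.1), from which names and no coordinates were taken. Alternatives are given in the closing section. Python 3.11.15, pandas 2.3.3, numpy 2.4.6, SciPy 1.17.1 and matplotlib 3.10.9 were used.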

Additional observations from a re-analysis of the deposited data

How the results depend on the processing

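Against 713 loci higher and 489 lower, a pseudocount of 0.1 gave 1560 and 1123, a pseudocount of 5 gave 70 and 102, a minimum of 5 FPKM 147 and 165, a minimum of 10 FPKM 81 and 107, a size rule of 2 79 and 66, and loci with a strand alone 316 and 196. Each of these settings narrows or widens by construction what can be called. The median difference was 0.09, and -0.10 with equal FPKM totals. With a pseudocount of 5 the higher and lower loci by class were 31 and 57 intergenic, 8 and 17 intronic, 15 and 10 junction-sharing, 6 and 6 antisense, 6 and 6 exon-overlapping, 0 and 1 known, and 4 and 5 mixed. Without the loci that overlap another on the opposite strand, an alternative chosen after seeing the data, 678 were higher and 450 lower. Upper-quartile factors gave 601 and 565, coverage weighted by length 654 and 504, and each transcript on its own 956 and 667. With median-of-ratios factors, 59 of 60 named loci kept their call and MSTRG.11007 gained one at -1.08. Many named loci were chosen for large differences, so a shift of -0.11 could hardly remove their calls. Of the 40 counts by gene list, many were 0 under both scalings, and lists without a tested locus could not change. The counts that moved were matrix loci lower (2 to 3), mitochondria and energy loci higher (4 to 3) and TGF-beta and Wnt loci higher (3 to 2). Depth limits the loci under 500 bases, at a median of 23 read equivalents against 81 over all loci. No paired analysis was possible because each group has 1 library, and none could be left out.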
